A study of Saccharomyces cerevisiae with 27 samples.

Results

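The genes described here are those that budding yeast uses to take up and burn galactose, together with HO, the endonuclease that cuts chromosomes at its own recognition site. The set was chosen by name: HO, the galactose genes GAL1, GAL2, GAL3, GAL4, GAL7, GAL10 and GAL80, and PGM2. Of these 9 genes, 8 were found among the 5434 genes with a symbol in the deposited expression table, each with 1 probe set, and GAL4 was not analysed here. Messenger RNA had been measured on 27 Affymetrix yeast arrays from haploid W303 cells. The scc2-4 cells were measured on 7 arrays with the break and 7 arrays lacking it, and the wild-type cells on 6 arrays with the break and 7 arrays lacking it. scc2-4 is a conditional allele of SCC2, which encodes part of the loader that puts the cohesin ring on chromosomes, and the label of these cells is Scc2 deficient. All cells were grown in rich medium with 2% raffinose, held in G2/M and moved to a higher temperature. Galactose followed 30 min later in all 4 groups, and cells were collected after another 90 min. For RNA extraction all samples were digested with zymolase for 1 h at 30 °C. The labels give the break as present or absent and say that the cells cut are those with the HO recognition site. The effect of cutting therefore cannot be told apart from other differences between strains with and without that site. The labels place the break on chromosome VI in one field and on chr.iv in another. No array without galactose was analysed here, so the values are levels after induction and give no induction ratio.

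Galactose metabolism is the textbook gene switch of yeast. Gal4 sits on the promoters of the galactose genes as an activator, Gal80 masks it, and Gal3 bound to galactose removes Gal80, so that the genes turn on. The switched-on genes encode the permease Gal2 and the enzymes Gal1, Gal7 and Gal10, whose product is fed into glycolysis by the phosphoglucomutase Pgm2. Promoters of this family are commonly joined to HO to make a break on demand. One probe set stands for HO, and its value does not separate a galactose-driven copy from the native gene.

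Each group came from 2 numbered experiments, the second with 3 or 4 arrays a group and the first with 3. The deposited values are log2 expression summarised by RMA. They fell into 3 sets with different distributions: the 8 scc2-4 arrays of experiment 2 (medians 10.01 to 10.04), the 7 wild-type arrays of experiment 2 (9.76 to 9.79) and the 12 arrays of experiment 1 (10.19 to 10.22). Genotype and array set cannot be told apart in experiment 2. The main comparisons used limma over all arrays with the array set as a term. The genotype difference averaged over the break states then rests on experiment 1, and break differences rest on both experiments. A genotype difference within 1 break state therefore also takes in the break responses of experiment 2. For PGM2 it was −0.08 without a break and 0.10 with one, against 0.05 and −0.03 within experiment 1. Values within each experiment are given beside the main comparisons. The SCC2 transcript itself was lower in the mutant, by −0.48 (log2) with a break and −0.36 without. Over all 27 arrays the haploid marker GPA1 averaged 10.8, the a-cell marker STE2 5.63 and the alpha-cell marker STE3 5.44 log2 units. The other haploid markers averaged 11.7 (RME1), 9.79 (STE4) and 9.77 (STE18). Of the G2/M markers, the mitotic kinase gene CDC5 averaged 10.1, CDC20 9.502 and CLB2 7.995 log2 units. STE2, MFA1, BAR1 and STE3 had means of 6.39 or lower, the alpha-agglutinin gene SAG1, a further alpha-cell marker, averaged 8.37, and the labels used here give no mating type.

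The enzyme and permease genes had nearly the same level on every array. GAL1, the galactokinase, ranged over 27 arrays from 13.96 to 14.12 log2 units with a median of 14.07. GAL10, the epimerase of the pathway, ranged from 13.78 to 13.95, and GAL7, the uridylyltransferase, from 13.69 to 13.95. GAL2, the permease, ranged from 13.52 to 13.80. Each of the 4 kept within these narrow limits across both genotypes, both break states and both experiments. The highest value on any array lay between 14.38 and 14.53, and how near these probe sets are to the top of the measurable range was not tested.

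HO itself ranged from 13.41 to 13.73. In experiment 2 the 4 scc2-4 arrays with a break read 13.47, 13.43, 13.47 and 13.52, and the 4 without a break 13.46, 13.47, 13.48 and 13.45. The wild-type arrays of experiment 2 read 13.41, 13.55 and 13.54 with a break and 13.45, 13.44, 13.56 and 13.53 without. These groups overlapped. In experiment 1 the scc2-4 arrays read 13.65, 13.54 and 13.45 with a break and 13.73, 13.70 and 13.71 without, against wild-type values of 13.60, 13.54 and 13.60 with a break and 13.49, 13.62 and 13.56 without. The 3 scc2-4 arrays without a break were the highest of the 27, and they did not overlap with the wild-type arrays. The share of all genes with such a separation was not counted, and 34.5% of all genes passed this genotype test in experiment 1. Across both experiments HO was at about the same level in groups labelled without a break as in groups with one.

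The pair of genes that set the switch, and PGM2, moved over a wider range. GAL80, the inhibitor, ranged from 12.42 to 12.90. GAL3, the galactose sensor, ranged from 10.71 to 12.001, and its values split by experiment. PGM2, the major phosphoglucomutase, ranged from 10.67 to 13.32, the widest range of the 8 genes.

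**Figure D1:**
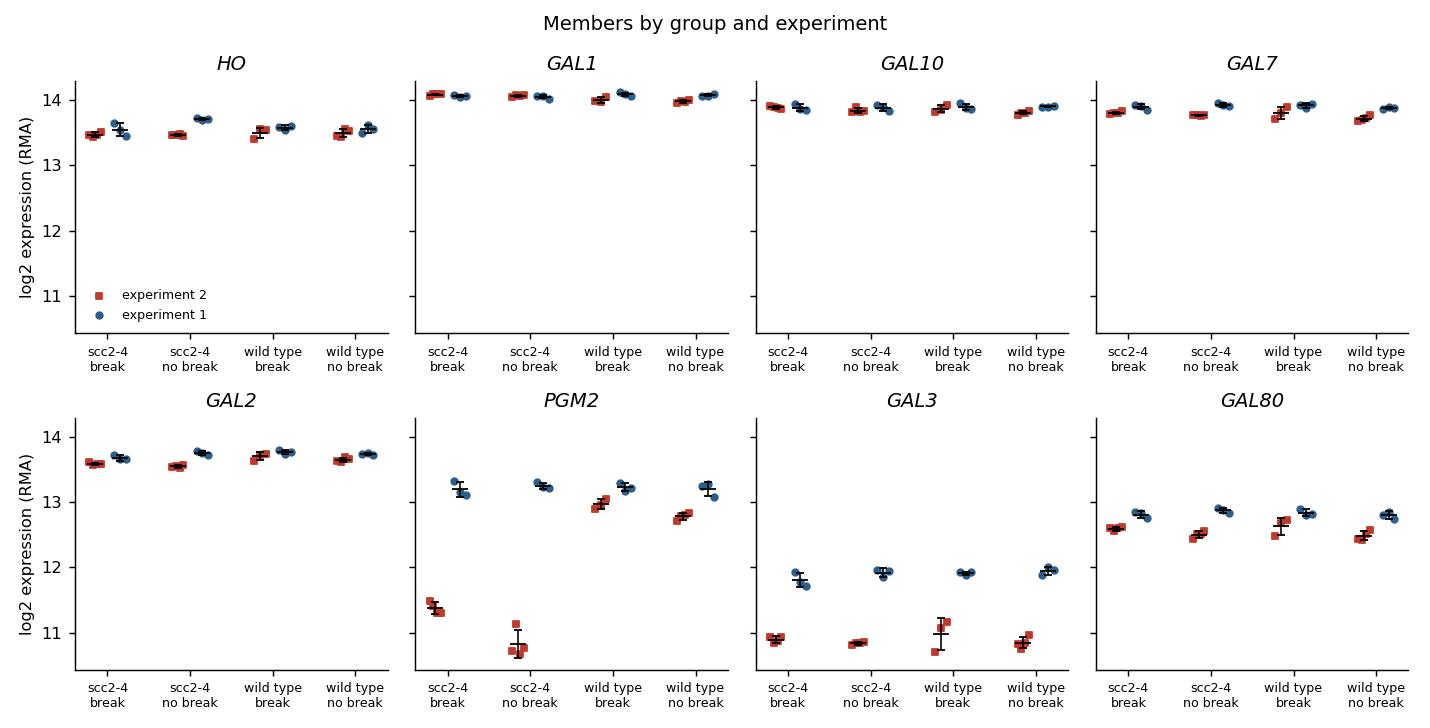
Log2 expression (RMA, y axis, one scale for all panels) of the 8 genes on each of the 27 arrays, by group (x axis), with experiment 2 as squares and experiment 1 as circles; bars are means and SDs of 3 or 4 arrays. GAL1, GAL10, GAL7, GAL2 and HO lie between 13.41 and 14.12 everywhere, GAL3 is lower in experiment 2 in every group, and PGM2 falls to 10.67 in scc2-4 of experiment 2.

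The first comparison asked whether loss of the cohesin loader changed the galactose genes in cells without a break. With the array set as a term, 0 of the 8 genes passed the test (limma, adjusted p under 0.05 over 5434 genes), where 38.6% of all genes passed, 20.7% higher and 17.9% lower. At an unadjusted p under 0.05 there was 1, HO. The 4 pathway genes differed by −0.03 ± 0.02 for GAL1, −0.02 ± 0.03 for GAL10, 0.04 ± 0.03 for GAL7 and −0.02 ± 0.03 for GAL2 (log2 change, SE, scc2-4 against wild type). GAL3 differed by −0.03 ± 0.07 and GAL80 by 0.06 ± 0.05. HO differed by 0.10 ± 0.05 (95% confidence interval 0.01 to 0.19; limma adjusted p = 0.0789), a fold of 1.07. PGM2 differed by −0.08 ± 0.11. Apart from PGM2, the intervals of these genes lay between −0.18 and 0.19, and the median change of the 8 genes was −0.02 against 0.00 for all genes.

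HO passed with experiment 1 fitted alone (0.16; limma adjusted p = 0.0486), with array weights (0.11) and in the fit without scc2-4 with break 1_3 (0.12) or without wild type with break 2_1 (0.11), where the array names give experiment and replicate. GAL1 passed after quantile normalization over all arrays, at −0.05.

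With a break, 0 of 8 genes passed against 42.7% of all genes (22.3% higher and 20.4% lower), and none had an unadjusted p under 0.05 in this limma fit. GAL1 and GAL10 differed by −0.03 ± 0.02 and −0.02 ± 0.03, GAL7 by −0.01 ± 0.03 and GAL2 by −0.06 ± 0.03. HO differed by 0.02 ± 0.05, GAL3 by −0.10 ± 0.07, GAL80 by −0.01 ± 0.05 and PGM2 by 0.10 ± 0.11. The intervals of the 7 genes other than PGM2 lay between −0.24 and 0.12.

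The next comparison asked how each genotype responded to the break. In scc2-4, 1 of 8 genes was higher with a break than without (PGM2), against 3.53% of all genes called higher, 3.24% called lower and 6.77% called in either direction. PGM2 was higher by 0.29 ± 0.08 (limma adjusted p = 0.034). The call ended in 7 of 27 fits that left out 1 array, namely those without scc2-4 without break 2_1, 2_3 or 2_4 or without scc2-4 with break 2_1, 2_2, 2_3 or 2_4, where the change was 0.24 to 0.28. The other genes differed by −0.07 ± 0.03 (HO), 0.02 ± 0.02 (GAL1), 0.03 ± 0.03 (GAL10), 0.01 ± 0.03 (GAL7), −0.00 ± 0.02 (GAL2), −0.02 ± 0.05 (GAL3) and 0.02 ± 0.04 (GAL80).

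In wild type, 0 of 8 genes passed in the break comparison, against 13.5% of all genes (7.91% higher and 5.63% lower), and 2 had an unadjusted p under 0.05 in limma (GAL7 and GAL80). All 8 changes were above 0, between 0.01 for HO and 0.11 for PGM2, with a median of 0.05 against −0.01 for all genes. The share of all genes above 0 was not counted. Within experiment 1 the changes of GAL3 (−0.04) and GAL10 (−0.01) were below 0 and those of the other members above it. GAL80 differed by 0.10 ± 0.04 and GAL7 by 0.06 ± 0.03. Both passed with array weights (0.10 and 0.06) and in the fit without wild type with break 2_1 (0.12 and 0.08). The difference between the genotypes in the response to the break passed for 0 of 8 genes, against 2.56% of all genes (1.29% higher and 1.27% lower) and with 0 at an unadjusted p under 0.05 in limma. For PGM2 that difference was 0.18, and it passed with array weights (0.33).

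**Figure D2:**
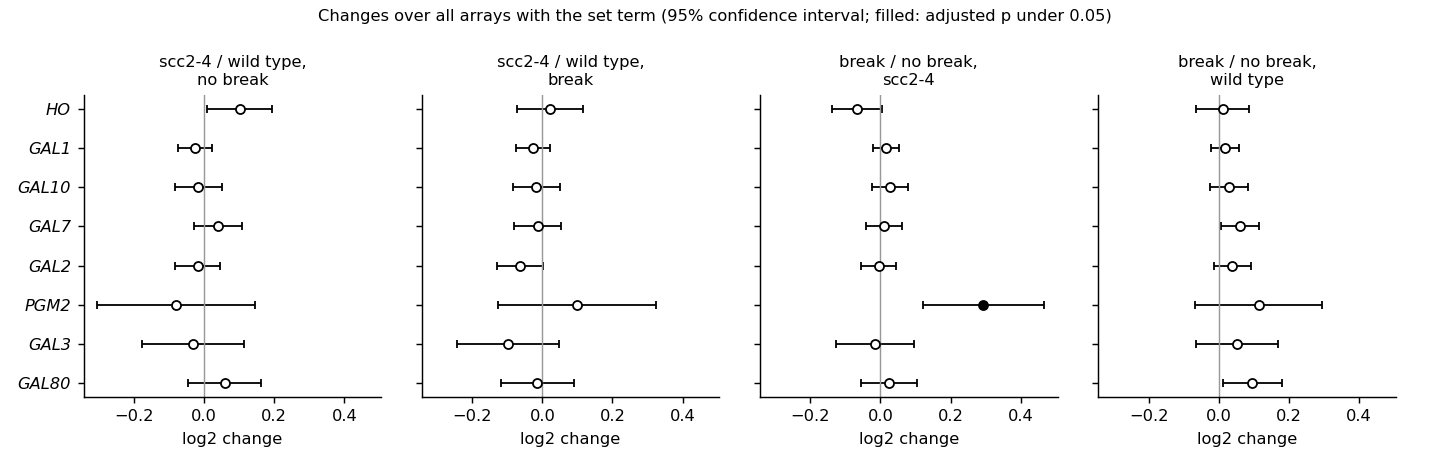
Log2 change (x axis) of each of the 8 genes (y axis) in the 4 comparisons, from limma over 27 arrays with the array set as a term; points are estimates, bars 95% confidence intervals, and a filled point has an adjusted p under 0.05. PGM2 after the break in scc2-4, at 0.29, is the single filled point.

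The difference of PGM2 between scc2-4 and wild type was large in experiment 2 and near 0 in experiment 1. Its enzyme joins the galactose pathway to glycolysis by turning glucose-1-phosphate into glucose-6-phosphate. In experiment 2 the scc2-4 arrays read 11.49, 11.41, 11.30 and 11.30 log2 units with a break and 10.72, 11.13, 10.67 and 10.76 without, against wild-type values of 12.90, 12.95 and 13.05 with a break and 12.71, 12.78, 12.80 and 12.83 without. All 8 scc2-4 arrays lay below all 7 wild-type arrays, and in each genotype the arrays with a break lay above those without. The share of all genes with such separations was not counted. In experiment 2, 83.9% and 82.0% of all genes passed the genotype tests without and with a break. The break tests passed for 7.53% in scc2-4 and 17.6% in wild type. In experiment 1 PGM2 read 13.32, 13.16 and 13.11 in scc2-4 with a break and 13.30, 13.23 and 13.22 in scc2-4 without, against 13.30, 13.17 and 13.22 in wild type with a break and 13.25, 13.28 and 13.07 in wild type without. These groups overlapped.

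A limma fit with a mean for each group in each experiment gave the sizes. This fit and the differences between experiments were chosen after the data had been seen. In experiment 2 PGM2 was lower in scc2-4 by −1.96 ± 0.08 without a break (log2 change, SE; a fold of 3.89; limma adjusted p = 3.41e-16). With a break it was lower by −1.60 ± 0.08 (a fold of 3.02). Against wild type in experiment 2, 83.9% of all genes passed without a break and 82.0% with one, and the medians of all genes were 0.24 and 0.23. A change lower than that of PGM2 was found for 22 genes without a break and 41 with one. In experiment 1 the PGM2 change was 0.05 ± 0.09 without a break and −0.03 ± 0.09 with one. The genotype change in experiment 2 minus that in experiment 1 was −2.01 ± 0.12 without a break and −1.56 ± 0.12 with one, where 75.8% and 72.3% of all genes passed the same test. After quantile normalization over all arrays the values for experiment 2 were −2.10 and −1.73. Because each genotype of experiment 2 lies in an array set of its own, a difference between the sets cannot be told apart from the genotype in these values.

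The response of PGM2 to the break in scc2-4 also differed between experiments, and both break states lay within each array set. In experiment 2 it was 0.55 ± 0.08 (limma adjusted p = 6.88e-05; 7.53% of all genes passed), and in experiment 1 it was −0.05 ± 0.09. The difference, 0.61 ± 0.12 (limma adjusted p = 0.0438), passed for PGM2 and 3 further genes, 0.0736% of all genes. That call ended in 21 of 27 fits that left out 1 array, where the difference was 0.56 to 0.63, and after quantile normalization (0.63; limma adjusted p = 0.054). In wild type the change of PGM2 with a break was 0.19 ± 0.08 in experiment 2 (limma adjusted p = 0.112) and 0.03 ± 0.09 in experiment 1, where 1.18% of all genes passed. The difference of these values was 0.16 ± 0.12, a test that 0.0920% of all genes passed. Within experiment 2 the break response of PGM2 in scc2-4 exceeded that in wild type by 0.36 ± 0.11 (limma adjusted p = 0.0984; 2.34% of all genes passed), and within experiment 1 the difference was −0.08 ± 0.13 (0.442% passed). Without the array scc2-4 without break 2_2, the difference in experiment 2 was 0.47 and passed (limma adjusted p = 0.00293), as did the wild-type change of 0.19 (limma adjusted p = 0.0328).

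**Figure D3:**
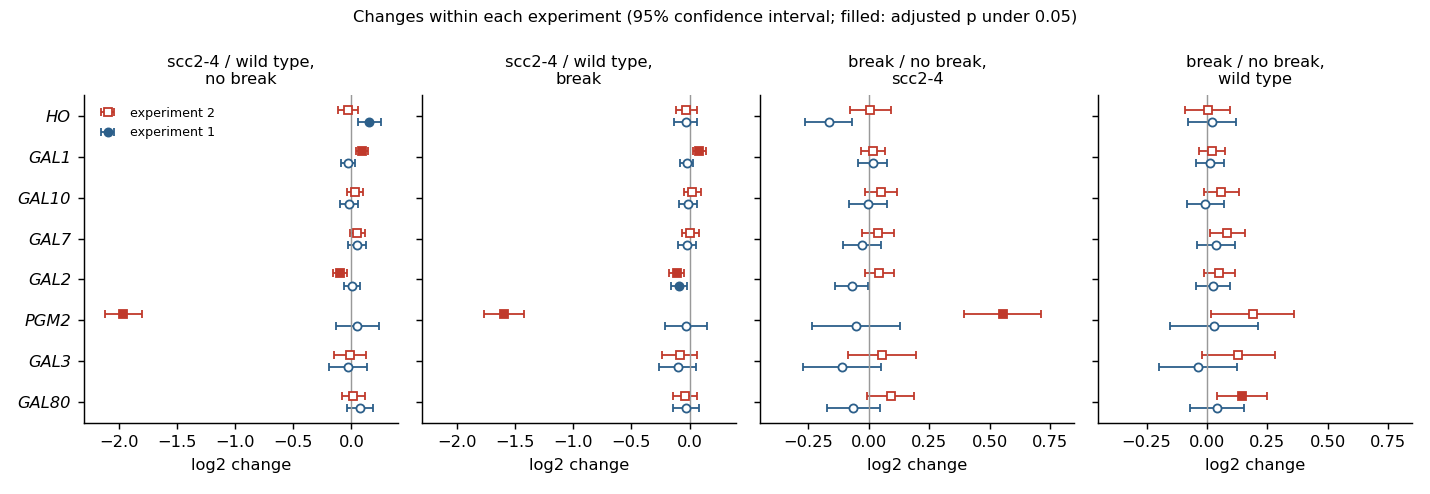
Log2 change (x axis, of different length in the genotype and break panels) of each gene (y axis) within experiment 2 (squares) and experiment 1 (circles); bars are 95% confidence intervals and filled points have an adjusted p under 0.05. PGM2 stands at −1.96 and −1.60 in the genotype panels of experiment 2 and near 0 in experiment 1, while no other gene is beyond 0.17 in either direction.

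The changes of the other 7 genes within either experiment were small. In experiment 2 the deposited values put GAL1 higher in scc2-4 by 0.09 ± 0.03 without a break and 0.08 ± 0.03 with one, and GAL2 lower by −0.10 ± 0.03 and −0.11 ± 0.03. After quantile normalization the GAL1 change turned to −0.06 and −0.04, and GAL2 was lower by −0.29 and −0.27. With that scaling HO was lower in scc2-4 of experiment 2 by −0.20 and −0.23, GAL3 by −0.25 and −0.32, GAL7 by −0.11 and −0.15 and GAL10 by −0.13 in both break states. With the deposited values HO differed there by −0.03 in both break states. The median of all genes was shifted by 0.24 and 0.23 in the deposited values of that comparison and by 0.03 and 0.02 after quantile normalization. The sizes of these changes therefore depend on the scaling, and for GAL1, GAL7 and GAL10 the sign does too (0.05 and 0.01 for GAL7 and 0.03 and 0.02 for GAL10 as deposited). GAL80 turned from 0.02 to −0.07 without a break, and with one it was −0.04 and −0.14. GAL2, HO and GAL3 were lower with both scalings. As deposited, HO and GAL3 (−0.01 without a break and −0.09 with one) did not pass (limma adjusted p of 0.277 or higher).

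In experiment 1, where all arrays shared 1 distribution, HO was higher in scc2-4 without a break by 0.16 ± 0.05 (limma adjusted p = 0.0145; 34.5% of all genes passed) and GAL2 was lower with a break by −0.09 ± 0.03 (limma adjusted p = 0.0413; 36.3% of all genes passed). The GAL2 call ended when experiment 1 was fitted alone (−0.09; limma adjusted p = 0.0949). GAL1, GAL10, GAL7, GAL3 and GAL80 did not pass there in either genotype comparison. HO changed by −0.17 ± 0.05 with the break in scc2-4 of experiment 1 (limma adjusted p = 0.0514; 3.64% of all genes passed) and by 0.01 ± 0.04 in experiment 2. GAL80 was higher with a break in wild type of experiment 2 by 0.15 ± 0.05 (limma adjusted p = 0.0476; 17.6% of all genes passed), and in experiment 1 it differed by 0.04 ± 0.05. The call in experiment 2 ended after quantile normalization (limma adjusted p = 0.0724) and when experiment 2 was fitted alone (limma adjusted p = 0.0635).

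GAL3, the sensor that starts the switch, stood apart between the experiments in both genotypes. In experiment 2 the GAL3 level averaged 10.89 ± 0.05 in scc2-4 with a break, 10.84 ± 0.02 in scc2-4 without, 10.98 ± 0.24 in wild type with a break and 10.85 ± 0.09 in wild type without (SD, n = 4, 4, 3 and 4). In experiment 1 these averages were 11.81 ± 0.11, 11.92 ± 0.06, 11.91 ± 0.02 and 11.95 ± 0.06 (SD, n = 3 each). No array of experiment 2 reached the lowest array of experiment 1, a separation whose share over all genes was not counted. Experiment 2 minus experiment 1 was −0.9997 ± 0.05 in scc2-4 (84.0% of all genes passed; median of all genes −0.11) and −1.02 ± 0.05 in wild type (87.1% passed; median −0.35). After quantile normalization these values were −0.90 and −0.67. For GAL80 they were −0.29 and −0.26 with the deposited values, for GAL7 −0.12 and −0.14, for GAL10 −0.02 and −0.07, for GAL1 0.02 and −0.09, for GAL2 −0.14 and −0.08 and for HO −0.16 and −0.07. PGM2 differed by −2.13 in scc2-4 and by −0.34 in wild type. Experiment and array set cannot be told apart in these values.

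The genes beside each member were read in the same fits. GAL7, GAL10 and GAL1 lie side by side on chromosome II, in the gene order of the R64 assembly, with KAP104 on the left and FUR4 on the right. FUR4, which encodes the uracil permease and is also a target of Gal4, was lower in scc2-4 by −0.36 ± 0.05 without a break (limma adjusted p = 4.9e-06) and by the same −0.36 ± 0.05 with one (adjusted p = 4.16e-06). In experiment 2 FUR4 averaged 11.56 ± 0.10 in scc2-4 with a break and 11.59 ± 0.05 in scc2-4 without, against 11.81 ± 0.06 in wild type with a break and 11.82 ± 0.07 in wild type without (SD). In experiment 1 the averages were 11.75 ± 0.04 and 11.65 ± 0.07 in scc2-4, against 12.10 ± 0.03 and 12.03 ± 0.10 in wild type, with and without a break in that order. In each experiment all scc2-4 arrays lay below all wild-type arrays, a separation whose share over all genes was not counted. Of all genes, 34.5% and 36.3% passed the genotype tests without and with a break in experiment 1, and 83.9% and 82.0% in experiment 2. KAP104 differed by −0.00 ± 0.03 without a break and 0.02 ± 0.03 with one.

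**Figure D4:**
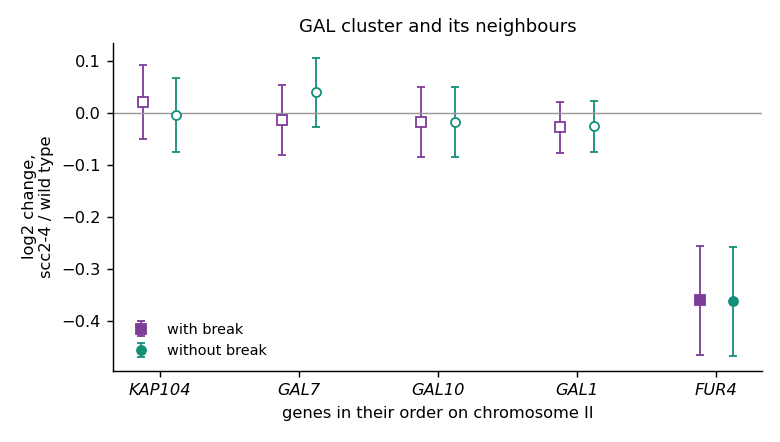
Log2 change between scc2-4 and wild type (y axis) for the galactose cluster of chromosome II and the gene on each side, in gene order (x axis, not to scale), with a break (squares) and without (circles); bars are 95% confidence intervals and filled points have an adjusted p under 0.05. The cluster and KAP104 lie within 0.04 of 0, and FUR4 lies at −0.36 in both.

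Of the genes beside the other members, SRL2 next to GAL2 was lower in scc2-4 by −0.26 without a break and −0.25 with one. Of all genes, 38.6% and 42.7% passed these genotype tests. The break tests passed for 13.5% in wild type and 6.77% in scc2-4, and the difference of the responses for 2.56%. SNQ2, a drug exporter gene next to GAL3, was lower by −0.35 with a break. Next to PGM2, the kinase gene YPK2 was higher by 0.34 with a break. YMR105W-A, on the other side of PGM2, was higher in scc2-4 by 0.19 without a break and 0.28 with one, and was higher with the break in scc2-4 by 0.15. SUR7 next to GAL80, which encodes a membrane protein, was lower with the break in wild type by −0.17, and its response differed between the genotypes by 0.26. The genes beside HO, SSB1 and GCS1, passed in none of the 5 comparisons. The same was true of EMP46 next to GAL2, SOK1 next to GAL3 and AIM32 next to GAL80.

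Among other targets of Gal4, FUR4 was the one lower in scc2-4 in both break states with the array set as a term. Of the 5 measured, 1 was lower in scc2-4 without a break (FUR4) and 2 with one (FUR4 and LAP3), none was higher, and the list medians were −0.10 and 0.01 against 0.00 and 0.01 for all genes, of which 38.6% and 42.7% passed. LAP3, a cysteine protease gene, was lower by −0.17 ± 0.07 (limma adjusted p = 0.0488). The call ended in 21 of 27 fits that left out 1 array and with the replicate numbers as a block (−0.17; limma adjusted p = 0.055), and the sign turned in experiment 2 alone (0.44, and 0.28 after quantile normalization). GCY1, a well-known Gal4 target, differed by −0.01 without a break. In experiment 2 after quantile normalization GCY1 was lower by −0.14 without a break and −0.11 with one (limma adjusted p = 1.42e-04 and 0.00356). None of the 5 passed with the break in either genotype. With the deposited values of experiment 2, where 83.9% and 82.0% of all genes passed, 3 of the 5 were lower in scc2-4 in both break states. These were FUR4 by −0.23 without a break and −0.25 with one, MTH1 by −0.55 and −0.32, and PCL10 by −0.69 and −0.50. MTH1 encodes a regulator of hexose transporter genes and PCL10 a cyclin that restrains glycogen synthesis.

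Of 10 measured genes for the entry of sugars into glycolysis, 0 passed without a break and 1 was higher in scc2-4 with one, PGM1, at 0.17 ± 0.04 (limma adjusted p = 0.00181), against 38.6% and 42.7% of all genes. PGM1 encodes the minor phosphoglucomutase. It was lower with the break in wild type by −0.11 ± 0.03, a call lost in 8 of 27 fits that left out 1 array. The deposited PGM1 values of experiment 2 were higher in scc2-4 by 0.18 without a break and 0.29 with one, where the medians of all genes were 0.24 and 0.23. After quantile normalization the PGM1 change was −0.10 and 0.00 and passed in neither (limma adjusted p = 0.0586 and 0.969). UGP1, whose enzyme makes UDP-glucose from glucose-1-phosphate, was lower in the deposited values of experiment 2 by −0.80 and −0.73. With those values all 10 genes of the list passed, 7 higher and 3 lower, against 83.9% and 82.0% of all genes (60.6% and 58.6% higher). That count depends on the scaling, since TPI1 did not pass without a break after quantile normalization either (0.01, limma adjusted p = 0.740).

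Genes of glucose repression shut the galactose genes off when glucose is present. Of 23 measured, 4 were higher and 3 lower in scc2-4 without a break, and 6 higher and 3 lower with one, below the shares of 38.6% and 42.7% of all genes called in either direction. MIG1, the glucose repressor that binds galactose promoters, was lower by −0.45 ± 0.09 without a break. Its relative MIG2 was higher by 0.56 ± 0.16 without a break and 0.41 ± 0.16 with one, and the second call ended in 15 of 27 fits that left out 1 array. TOS3, one of the kinases that activate Snf1, was lower by −0.44 ± 0.11 without a break and −0.48 ± 0.11 with one. RGT2, a sensor of high glucose, was higher by 0.69 ± 0.09 with a break and was lower with the break in wild type by −0.29 ± 0.07. In experiment 2 the genotype changes without a break were −0.68 for MIG1, 1.85 for MIG2, −0.70 for TOS3 and 0.61 for RGT2, the last being 0.34 after quantile normalization. The kinase gene SAK1 was the single list gene called for the break in scc2-4 (−0.08 ± 0.02), and this call ended in 21 of 27 fits that left out 1 array and with the replicate numbers as a block (−0.08; limma adjusted p = 0.0527).

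Among 14 hexose transporter genes measured of 17, 5 were higher and 3 lower in scc2-4 without a break, and 4 higher and 3 lower with one, where 38.6% and 42.7% of all genes passed. HXT3, a low-affinity glucose transporter gene, was higher without a break by 1.10 ± 0.21, and was higher with the break in wild type by 0.60 ± 0.17. HXT4 was higher without a break by 0.71 ± 0.19. HXT11 was lower by −1.18 ± 0.09 without a break and −1.20 ± 0.09 with one, HXT9 by −0.84 ± 0.11 with a break and HXT10 by −0.72 ± 0.25 with a break, a call that 3 of 27 fits with 1 array left out did not give. HXT9 and HXT11 are near-identical copies whose probe sets may share signal, so their separate values are uncertain. After quantile normalization, HXT9 (−0.18) and HXT10 (−0.33) did not pass with a break in experiment 2 (limma adjusted p = 0.187 and 0.209). With that scaling HXT11 was lower by −0.86 in both break states, and HXT3 (0.76) and HXT4 (1.38) were higher without a break. In the deposited values of experiment 2, 4 of the 14 were higher and 9 lower in scc2-4 without a break. The list median was −0.98 against 0.24 for all genes, and 3 were higher and 9 lower with a break. There 83.9% and 82.0% of all genes passed, 23.3% and 23.4% being lower.

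Of the coactivators that Gal4 recruits, 14 were measured out of 15. In this list 4 were higher and 1 lower in scc2-4 without a break, and 4 higher and 3 lower with one, against 38.6% and 42.7% of all genes. TRA1, the scaffold that activators contact in the SAGA complex, was higher by 0.30 ± 0.04 without a break. ADA2, another SAGA subunit gene, was higher by 0.26 ± 0.06 without a break and 0.38 ± 0.06 with one. GAL11, which encodes the Mediator subunit that Gal4 contacts, was lower by −0.21 ± 0.06 without a break, and the Mediator genes PGD1 and SIN4 were lower with one by −0.30 ± 0.05 and −0.20 ± 0.06. In experiment 2 the deposited values of PGD1 and SIN4 differed with a break by 0.17 and 0.31, where the median of all genes was 0.23. After quantile normalization they differed by −0.12 and 0.04, so the sign of PGD1 there depends on the scaling and SIN4 did not pass (limma adjusted p = 0.635). Without a break, TRA1 in experiment 2 was lower by −0.11 with that scaling (limma adjusted p = 0.0213), opposite to the main fit. ADA2 (0.31) and GAL11 (−0.50) kept their signs. TRA1 was the single list gene whose response to the break differed between genotypes (−0.16 ± 0.04), and that call ended in 19 of 27 fits that left out 1 array.

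Regulators of the native HO gene were counted beside HO. Of 12 measured, 3 were higher and 0 lower in scc2-4 without a break, and 4 higher and 1 lower with one, against 38.6% and 42.7% of all genes. SNF5 and SNF2 of the SWI/SNF remodelling complex were higher without a break by 0.17 ± 0.07 and 0.16 ± 0.06, and the corepressor gene SIN3 by 0.14 ± 0.05. Leaving out 1 array ended the calls in 15, 4 and 4 of 27 fits, and the SNF5 call also ended with the replicate numbers as a block (0.16; limma adjusted p = 0.0552). In experiment 2 these 3 genes had the opposite sign (−0.11, −0.21 and −0.04 as deposited, and −0.40, −0.44 and −0.28 after quantile normalization). ASH1, which encodes a repressor of HO, was higher with a break by 0.28 ± 0.08, and the G1 cyclin gene CLN3 by 0.23 ± 0.07. The deacetylase gene RPD3 was lower by −0.15 ± 0.04. SWI5, which encodes an activator of HO, was lower with the break by −0.16 ± 0.05 in scc2-4 and −0.20 ± 0.05 in wild type, and ASH1 was lower with the break in wild type by −0.19 ± 0.06. The SWI5 call in scc2-4 ended in 18 and the ASH1 call in wild type in 8 of 27 fits that left out 1 array.

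Correlations from array to array were mostly positive among the 8 genes. After the mean of each array set was taken out, 27 of the 28 pairs among the 8 genes had a Pearson correlation above 0 over 27 arrays, with a median of 0.58. Over all pairs of the 5434 genes 50.2% were above 0, with a median of 0.00. The highest was 0.87, between GAL7 and GAL80, and the one below 0 was −0.10, between HO and GAL1. These arrays share groups, batches and normalization, so the correlations describe these arrays only. HO correlated with GAL3 at 0.59 and with GAL7 at 0.57, but with PGM2 at 0.19.

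**Figure D5:**
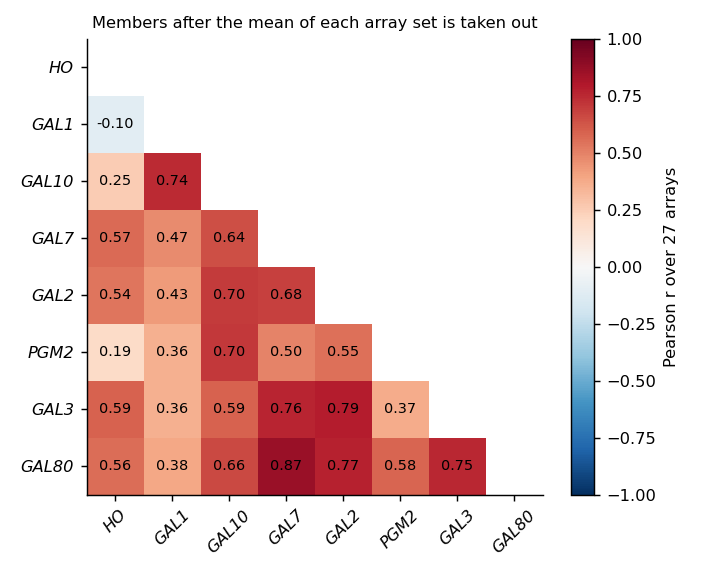
Pearson correlation (colour and number) between each pair of the 8 genes over 27 arrays, after the mean of each array set was subtracted. GAL7 with GAL80 (0.87) and GAL3 with GAL2 (0.79) are highest, and HO with GAL1 (−0.10) is the one pair below 0.

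Across all 5434 genes, the nearest patterns to some members were other members: GAL80 (0.87) for GAL7, and GAL2 (0.79) and GAL7 (0.76) for GAL3. GAL80 lay closest to SDD1 (0.87) and GAL7 (0.87), and GAL2 to OPI10 (0.85) and OXR1 (0.80). GAL10 lay closest to the chaperone genes SSE2 (0.83) and HSP82 (0.83), the second of which has a near-identical copy. GAL1 lay closest to the histone gene HHF1 (0.77), whose protein is encoded by a second gene as well, and to ARE2 (0.74), and HO to SAP190 (0.74) and SMY1 (0.71). PGM2 lay closest to RTC3 (0.95) and to SPI1 (0.94), which encodes a cell wall protein. In experiment 2 RTC3 was lower in scc2-4 by −0.76 without a break and −0.54 with one, and SPI1 by −0.75 and −0.39. In experiment 1 the changes were 0.03 and −0.01 for RTC3 and 0.01 and −0.03 for SPI1.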

How the data were processed

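Total RNA had been extracted after zymolase digestion and hybridised to 1-colour arrays, per the labels' protocols. Per the submitters' processing notes, the authors made the deposited log2 values with RMA under R 2.9.2. The version of RMA, the arrays run together and the centring of the columns are not given in the sources used here, and no scanner files were used. Of 5684 probe sets, 5468 had 1 symbol in the probe table, 0 several and 216 none. After 12 symbols were updated through the R64 gene table, the probe set with the highest mean was kept for 34 genes with several. No coordinates or sequences are given, because the files name no build.

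Sorted values of 2 arrays of one set were on average 0.00818 to 0.0302 apart, and those of arrays from different sets 0.147 to 0.425. The model (limma 3.58.1 in R 4.3.3, lmFit and eBayes) held the 4 groups and the array set over 27 arrays. P-values were adjusted by Benjamini-Hochberg over 5434 genes with a threshold of 0.05. A second fit had a mean for each group in each experiment. The steps were tested on simulated data with independent errors and a shift added in scc2-4 with a break alone. That test cannot show how the fit behaves where arrays deviate together or effects differ between experiments.

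The members, gene lists and tests were chosen with earlier results of these data known. All members were named in every comparison, with up to 3 other genes per list with the largest change past the threshold, the nearest gene with a probe set on each side of a member, and the 2 genes most correlated with each; MTH1, PCL10, UGP1 and GCY1 were named after their values were seen. The labels call the replicates biological but do not say that they came from separate cultures, so p-values measure the spread between these arrays. The number of arrays limits the precision. Of 39 same-number correlations of deviations from the group means, 25 were above 0.1 (−0.67 to 0.76), so the replicate numbers do not pair the arrays throughout, although all 6 between the genotypes within experiment 1 were (0.32 to 0.76). Values with the numbers as a block stand where they end a call. Alternatives were experiment as the only added term, each experiment alone, centring, quantile normalization, array weights, a replicate block, all probe sets, a filter on low values, another prior and leaving out each array.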

Additional observations from a re-analysis of the deposited data

Results flagged for a closer look

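HO on the array wild type with break 2_1 read 13.4 log2 units, against 13.54 and above on the other 5 arrays of that group. Of 56 such checks of one array against its group this was the single hit, and chance flags about 1 in 20 groups. This check pooled both experiments. Within that group of experiment 2 the same array was also the lowest for GAL2, GAL3, GAL7, GAL10, GAL80 and PGM2, but not for GAL1. GAL3 read 10.71 there, against 11.07 and 11.16. The share of all genes lowest on that array was not counted. The genotype change of 4 genes differed between the experiments in a test of the difference itself (experiment 2 minus experiment 1, limma, adjusted p under 0.05). PGM2 differed by −2.01 without a break and −1.56 with one, GAL1 by 0.116 and 0.109, GAL2 by −0.108 without a break and HO by −0.185 without a break. The same test passed for 75.8% of all genes without a break and 72.3% with one, and array set and genotype cannot be told apart in experiment 2. The medians of all genes in this test were 0.25 and 0.24. After quantile normalization they were 0.04 and 0.03, PGM2 differed by −2.15 and −1.68, and the GAL1 differences were −0.00 in both break states (limma adjusted p = 0.921 and 0.953). GAL2 (−0.30 and −0.16), HO (−0.35 and −0.20) and GAL7 (−0.14 and −0.12) then passed in both break states, and GAL10 (−0.11) and GAL80 (−0.18) without a break, so apart from PGM2 and the GAL2 and HO differences without a break the calls depend on the scaling. The break response of PGM2 in scc2-4 differed by 0.607 between the experiments, where 0.0736% of all genes passed.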

How the results depend on the processing

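With the array set as a term 2100 genes passed between scc2-4 and wild type without a break, 2318 with one, 736 for the break in wild type, 368 for the break in scc2-4 and 139 for the difference of these responses. With experiment as the only added term 3594 genes passed without a break, 103 and 33 for the break in wild type and scc2-4, and 19 for the difference. Experiment 1 alone, with fewer arrays, gave 22, 36 and 11 for the last 3 comparisons. Experiment 2 alone gave 4613 and 4500 for genotype without and with a break and 1273 and 566 for the break in wild type and scc2-4. Array weights gave 1398, 1358 and 586 for the last 3 comparisons, and the replicate block gave 224 for the difference and moved no other count by over 1.5 times; among named genes it ended the calls of SNF5, LAP3 and SAK1 given above and of no other gene named in the main comparisons. Leaving out 1 array gave 245 to 412 genes for the break in scc2-4 and 84 to 178 for the difference.

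Of the 8 members, 0 passed for genotype without a break, but 1 with experiment as the only added term, 1 in experiment 1 alone, 3 in experiment 2 alone, 1 after quantile normalization, 1 with array weights and 0 to 1 with 1 array left out. For genotype with a break, 2 passed with experiment as the only added term and 3 in experiment 2 alone. For the break in wild type, 2 passed with array weights and 0 to 2 with 1 array left out. For the break in scc2-4, 0 passed with experiment as the only added term or in experiment 1 alone, and 0 to 1 with 1 array left out. For the difference, 1 passed with array weights.

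Signs turned as follows. In experiment 2 alone GAL1 changed by 0.088 without a break and 0.083 with one. PGM2 with a break changed by −0.853 with experiment as the only added term and −1.60 in experiment 2 alone, and its break response in scc2-4 was −0.053 in experiment 1 alone. In experiment 2 alone SIN3 (−0.037), SNF2 (−0.212) and SNF5 (−0.112) turned without a break, and LAP3 (0.442), PGD1 (0.167) and SIN4 (0.309) with one. With experiment as the only added term SNF2 (−0.049), LAP3 (0.168) and SIN4 (0.066) turned. The cause was not tested. Signal over background and saturation could not be read from these values, and neither induction nor protein was measured.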
